A study of Mus musculus with 17 samples.

Results

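The 6 genes described here encode proteins that carry, load and take up lipids in the brain: Apod, Apoe and Clu, the transporters Abca1 and Abcg1, and the receptor Lrp1. They were chosen by symbol from a table of 55453 genes. Apod was chosen because its level was lower in both Hnrnph2 knockin lines, so its difference in these lines is given as a description with no test. The same holds for its comparisons between groups of controls, since those of the knockin lines took part in the choice. The other 5 genes were chosen by function. All 6 were found and had a mean of at least 1 TPM (the gene's part of a pool of 1000000 transcripts, corrected for transcript length), the filter that left 16265 genes for testing.

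RNA was measured in the whole cortex of 17 male mice of strain C57BL/6J. KO mice were hemizygous for a knockout of Hnrnph2, an X-linked gene for an RNA-binding protein, and were compared at 8 weeks with KO Control mice (3 mice each). R206W mice were hemizygous for the R206W substitution in hnRNPH2 and were likewise compared at 8 weeks with R206W Control mice (3 mice each). P209L mice were hemizygous for the P209L substitution and were sampled at 3 weeks (3 mice, and 2 P209L Control mice analysed here). All controls were wild-type littermates of their line, and the labels name no treatment. Every allele was a germline change in the endogenous gene. The KO allele is a small out-of-frame insertion or deletion that ends the protein early, and was an unplanned product of making the knockin alleles. For the P209L line, age and line cannot be told apart.

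Lipids move between brain cells on small particles built in the brain itself. Astrocytes and microglia release Apoe, the main apolipoprotein of these particles, and astrocytes release Clu (apolipoprotein J), which also acts as a chaperone outside cells. Abca1 passes cholesterol and phospholipid to lipid-poor apolipoproteins, Abcg1 loads the particle further, and both genes are targets of the liver X receptors, which sense oxysterols. Lrp1 is a large endocytic receptor of the LDL receptor family that takes up Apoe particles into neurons and glia. Apod is unlike the other apolipoproteins: it is a lipocalin, a small cup-shaped protein that binds arachidonic acid and other small lipids. In the brain it is made mainly by oligodendrocytes, perivascular cells and fibroblasts of the leptomeninges.

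The libraries were checked first. Hnrnph2 was 23.1 ± 1.59 TPM (SD, n = 3) in KO mice and 122 ± 35.7 TPM (SD, n = 3) in KO Control mice, which was 19.0% of the control level. It was at 100.4% of control in R206W mice and 107% in P209L mice. The library of KO Control mouse 1 stood apart: mitochondrial transcripts made up 20.1% of its TPM, against 10.7% to 15.4% in the other 16 mice. The library of P209L Control mouse 2 stood apart too: its summed TPM of 7 choroid plexus markers was 1784, against 10.4 in the other P209L Control mouse and 4.57 to 28.4 in the other 15. Values without either mouse are given beside the results that they move. Without P209L Control mouse 2 a single control is left, which the fit takes to vary like the other groups. In the cortex as a whole, the neuronal markers Snap25 and Slc17a7 had mean levels of 2317 and 679 TPM, and no marker of 12 cell type lists was at 0 in every mouse. In such bulk samples fewer cells of a type and less RNA per cell cannot be told apart.

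In the GENCODE M21 annotation of GRCm38 (the processing notes name mm10, the same assembly), Apod (ENSMUSG00000022548.14) lies on chromosome 16 from 31296192 to 31314808 on the minus strand. Apoe (ENSMUSG00000002985.16) lies on chromosome 7 from 19696109 to 19699188, minus strand. Clu (ENSMUSG00000022037.15) lies on chromosome 14 from 65968483 to 65981547, plus strand. Abca1 (ENSMUSG00000015243.4) lies on chromosome 4 from 53030787 to 53159895, minus strand. Abcg1 (ENSMUSG00000024030.7) lies on chromosome 17 from 31057675 to 31117988, plus strand, and its span holds the ribosomal RNA gene Gm25447. Lrp1 (ENSMUSG00000040249.15) lies on chromosome 10 from 127538161 to 127621148, minus strand, and overlaps an antisense gene, Gm16217. The library kit keeps the strand, but whether strand was used in counting is not given in the sources used here, so reads of Lrp1 and Gm16217 may not be separated.

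The promoters of 4 of the 6 genes (Apod, Abca1, Apoe and Lrp1) were in the RefSeq table for GRCm38.p6, which covers 250 bases before to 50 bases after each start. Those of Apod and Abca1 are shown because these genes stand at opposite ends in what follows. Apod varied among mice with little relation to the other 5 genes, while Abca1 varied with Clu and Abcg1. In the Apod sequence (chr16:31314759-31315058, minus strand) the capitals mark CG dinucleotides. In the Abca1 sequence (chr4:53159846-53160145, minus strand) they mark, from left to right, an E-box (CACGTG), a match on the other strand to GGTTA and GGTCA separated by 5 bases, and a TATA box (TATAAA). The spaced pair is a form of the DR4 repeat, the kind of element that liver X receptors bind.
Apod: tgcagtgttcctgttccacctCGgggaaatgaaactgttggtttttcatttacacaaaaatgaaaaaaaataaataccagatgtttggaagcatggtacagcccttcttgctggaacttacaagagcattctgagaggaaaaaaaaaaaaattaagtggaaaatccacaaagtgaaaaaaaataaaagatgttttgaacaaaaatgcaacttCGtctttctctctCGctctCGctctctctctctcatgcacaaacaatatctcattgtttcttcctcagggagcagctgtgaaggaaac
Abca1: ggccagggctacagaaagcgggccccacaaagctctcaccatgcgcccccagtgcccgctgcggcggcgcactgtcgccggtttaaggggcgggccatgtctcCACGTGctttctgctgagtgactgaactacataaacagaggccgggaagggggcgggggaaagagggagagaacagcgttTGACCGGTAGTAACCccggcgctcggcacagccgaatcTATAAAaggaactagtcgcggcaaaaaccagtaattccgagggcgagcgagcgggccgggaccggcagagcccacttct

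The Apod promoter had 4 CG dinucleotides and a GC content of 37.3%, and 6.20% of 32851 mouse promoters had a lower GC content. The Abca1 promoter had 26 CG dinucleotides and a GC content of 62.7%, against medians of 7 and 52.7% over all promoters. Apoe had 10 CG dinucleotides and a GC content of 57.7%, and Lrp1 had 16 and 67.7%. Each motif was searched on both strands. GGTTA followed after 5 bases by GGTCA was found in 0.0487% of all promoters, and Abca1 was the only one of the 4 to hold it. The pair with GGTCA on both sides was found in 0.0761% of all promoters and in none of the 4. CACGTG and TATAAA were found in 7.15% and 13.6% of all promoters and, of the 4, in Abca1 alone. The GC box GGGCGG was found in 35.7% of all promoters and in those of Abca1 and Lrp1. These matches describe letters within 300 bases and were not tested for binding.

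On the TPM scale, which is per transcript length, Apoe was the most abundant of the 6 genes, with a mean of 2040 TPM over the 17 mice (rank 20 of all genes). Clu followed at 559 TPM (rank 141), then Apod at 147 TPM (rank 928), Lrp1 at 107 TPM (rank 1377), Abcg1 at 16.3 TPM (rank 7885) and Abca1 at 8.17 TPM (rank 10483). The secreted carriers were thus far more abundant than the transporters that load them.

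**Figure D1:**
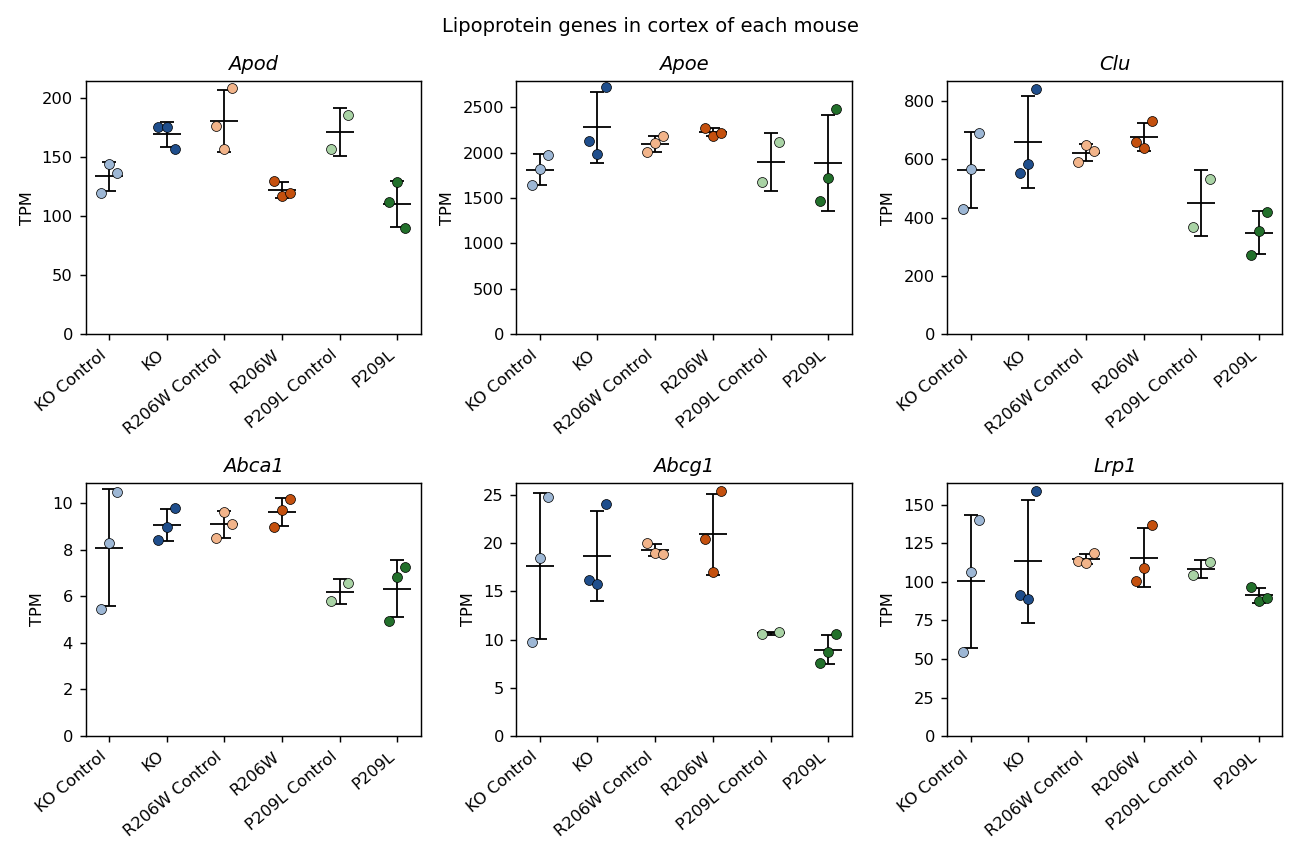
Level of each of the 6 genes (vertical axis, TPM, from 0) in the cortex of each mouse, by group (1 point per mouse; bars are the mean and SD). Every R206W and P209L mouse lies below every control of its line for Apod, every KO mouse lies above its controls, and KO Control mouse 1 is the lowest of its group for all 6 genes.

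Apod was lower in both knockin lines and higher in KO mice, each against its own controls. R206W mice had 130, 117 and 120.0 TPM, and R206W Control mice had 176, 157 and 208.8 TPM. The means were 122 ± 6.48 (SD, n = 3) and 181 ± 26.3 (SD, n = 3), so that R206W mice stood at 67.7% of control without overlap. P209L mice had 112, 129 and 90.2 TPM, and the 2 P209L Control mice had 157 and 186 TPM. The means were 110.5 ± 19.6 (SD, n = 3) and 172 ± 20.4 (SD, n = 2), and P209L mice stood at 64.4% of control, again without overlap. On the log2(TPM + 1) scale the differences were -0.55 (SE 0.137) in R206W and -0.64 (SE 0.153) in P209L mice. These are the values on which Apod was chosen, and nothing is read from them. Among all genes tested, 8.11% were lower without overlap in R206W mice and 10.7% in P209L mice.

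KO mice had 176, 176 and 157 TPM of Apod, and KO Control mice had 120.0, 145 and 137 TPM. No KO mouse overlapped with the controls, and the mean of 169.5 ± 10.9 (SD, n = 3) was 127% of the control mean of 134 ± 12.6 (SD, n = 3). In the KO line 5.43% of all genes tested were higher and 0.824% lower without overlap, and 7.88% and 17.2% without KO Control mouse 1. Apod was not chosen on this comparison, so it was tested: the log2 difference was 0.34 (SE 0.137), with an unadjusted p of 0.0247 and an adjusted p of 0.999 (limma, Benjamini-Hochberg over 16265 genes). It did not pass the threshold of 0.05. Of all genes, 4.08% had an unadjusted p under 0.05 in this comparison and 0.00615% an adjusted p under 0.05. The difference was 0.27 without KO Control mouse 1, at 120.4% of control, and the groups still did not overlap.

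The 2 groups of 8-week controls differed by as much as some mutants differed from their controls. R206W Control mice were higher in Apod than KO Control mice, by 0.42 (SE 0.137) on the log2 scale. The R206W Control values are among those on which Apod was chosen, and that choice favours high ones. The Apod difference is therefore given without a test. Of the 5 genes other than Apod, only Apoe was higher there without overlap, beside 8.43% of all genes. None of the 5 was lower without overlap, beside 0.646% of all genes. None had an unadjusted p under 0.05 (limma), beside 3.12% of all genes. The median over all genes was 0.13. Apod was 0.35 higher in R206W Control mice, and the median over all genes -0.0014, without KO Control mouse 1. After rescaling by median-of-ratios size factors that median was -0.0022 and Apod was 0.28 higher in R206W Control mice. The level in R206W mice was also set beside the other wild-type group of the same age: against KO Control mice the log2 difference was -0.13 and the groups overlapped. KO mice overlapped with R206W Control mice in the same way, at -0.083. Against all 6 controls of 8 weeks (chosen after seeing the data) the differences were -0.34 (SE 0.119) for R206W and 0.13 for KO mice. Set directly side by side, KO mice were above R206W mice in Apod by 0.47 on the log2 scale. The R206W values are among those on which Apod was chosen, so nothing is read from this difference.

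The order of the 6 group means of Apod was R206W Control, P209L Control, KO, KO Control, R206W and P209L. KO and KO Control were the only neighbours in this order whose ranges did not overlap. On the log2 scale the difference from control in KO mice minus that in R206W mice was 0.89 (SE 0.194). The P209L value minus the KO value was -0.98 (SE 0.206), and the P209L value minus the R206W value was -0.090 (SE 0.206). These differences include the values on which Apod was chosen and were not tested. Apod was also placed among all genes. A total of 122 of the 16265 genes tested were lower without overlap in both knockin lines, and 12 of them were also higher without overlap in KO mice. Of the 122, 4 genes, Apod included, were at least as low relative to control as Apod in both lines, and the other 3 (Gm23547, Gm37111 and Tnni1, chosen after their values were seen) had mean levels of 1.10, 7.18 and 4.17 TPM. This placing uses the values on which Apod was chosen, so a place near the low end follows from that choice. Nothing is read from it.

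**Figure D2:**
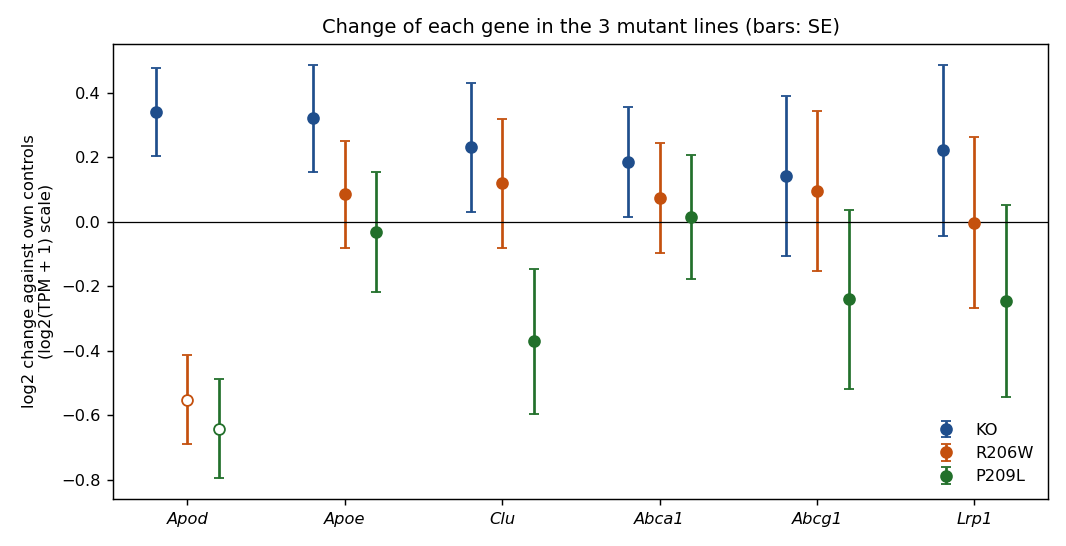
Log2 difference of each gene from its own controls (vertical axis, log2(TPM + 1) scale; bars are the SE of the fit) in KO, R206W and P209L mice. Filled points were tested; the open Apod points at -0.55 and -0.64 were not, because Apod was chosen on them. None of the filled points passed an adjusted p of 0.05.

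Apoe and Clu, the other secreted carriers, passed no test in the mutant lines. Apoe was 1639, 1819 and 1978 TPM in KO Control mice and 2131, 1983 and 2719 TPM in KO mice, which stood at 126% of control without overlap. Its log2 difference was 0.32 (SE 0.165), with an adjusted p of 0.999 (limma). It was 0.19 without KO mouse 3 and 0.18 after quantile normalization. In R206W mice Apoe was 2273, 2186 and 2211 TPM and in R206W Control mice 2007, 2107 and 2177 TPM. These groups also did not overlap, but the difference was 0.085 (SE 0.165) on the log2 scale, at 106% of control, with an adjusted p of 1.0 (limma); 8.09% of all genes were higher without overlap in that line. P209L mice had 1464, 1717 and 2482 TPM of Apoe and P209L Control mice 1671 and 2119 TPM, which overlapped at 99.6% of control.

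Clu was 430, 565 and 690 TPM in KO Control mice and 554, 583 and 839 TPM in KO mice, and it overlapped there. It was 589, 648 and 629 TPM in R206W Control mice and 660, 638 and 731 TPM in R206W mice, with overlap. P209L mice had 271, 354 and 418 TPM and P209L Control mice 369 and 531 TPM, so that Clu was at 77.2% of control with overlapping groups, and the log2 difference was -0.37 (SE 0.224, adjusted p = 0.803 by limma). This value rested on the controls: it was -0.63 without P209L Control mouse 1 and -0.11, at 94.2% of control, without P209L Control mouse 2. The P209L effect on Clu was below the KO effect by -0.60 (SE 0.300), with an adjusted p of 0.640 (limma).

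The part of Apod among the 3 carriers was lower in both knockin lines. Apod made up 6.22% ± 0.780 (SD, n = 3) of the summed TPM of Apod, Apoe and Clu in R206W Control mice and 4.04% ± 0.165 (SD, n = 3) in R206W mice. It made up 6.86% ± 0.422 (SD, n = 2) in P209L Control mice and 4.99% ± 1.71 (SD, n = 3) in P209L mice. In the KO line the share was 5.36% ± 0.434 (SD, n = 3) in controls and 5.59% ± 1.19 (SD, n = 3) in KO mice. The shares contain the Apod values that chose the gene and are given without a test.

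The transporters and the receptor passed no test in the mutant lines. Abca1 was 5.47, 8.28 and 10.5 TPM in KO Control mice and 8.43, 8.97 and 9.77 TPM in KO mice. It was 8.50, 9.63 and 9.11 TPM in R206W Control mice and 8.96, 9.69 and 10.2 TPM in R206W mice. In P209L Control mice it was 5.81 and 6.57 TPM and in P209L mice 4.93, 6.81 and 7.24 TPM. The groups overlapped in all 3 lines, and the log2 differences were 0.18, 0.073 and 0.015 (SE 0.171, 0.171 and 0.191).

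Abcg1 was 9.71, 18.4 and 24.8 TPM in KO Control mice and 16.2, 15.7 and 24.1 TPM in KO mice. It was 20.0, 18.9 and 18.9 TPM in R206W Control mice and 20.4, 17.01 and 25.4 TPM in R206W mice. P209L Control mice had 10.6 and 10.8 TPM and P209L mice 7.58, 8.71 and 10.6 TPM. The groups overlapped in each line, with log2 differences of 0.14, 0.097 and -0.24 (SE 0.248, 0.248 and 0.277).

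Lrp1 was 54.8, 106 and 139.9 TPM in KO Control mice and 91.7, 89.2 and 159 TPM in KO mice. It was 113, 113 and 119 TPM in R206W Control mice and 101, 109 and 137 TPM in R206W mice. P209L mice had 97.0, 87.9 and 89.4 TPM, all below the P209L Control mice at 104 and 113 TPM. That is 84.2% of control, with a log2 difference of -0.25 (SE 0.296, adjusted p = 0.937 by limma). Lrp1 was the only one of the 5 genes other than Apod to be lower without overlap in P209L mice, where 10.7% of all genes were; none of the 6 was higher without overlap there, as 14.2% of all genes were.

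No gene of the 5 passed an adjusted p of 0.05 in R206W or P209L mice, and none of the 6 passed in KO mice (limma, Benjamini-Hochberg). At an unadjusted p under 0.05 the count was 0 of 5 in R206W, 0 of 5 in P209L and 1 of 6, Apod, in KO mice. Over all genes an adjusted p under 0.05 was reached by 0.0369% in R206W and 0.0984% in P209L mice, and an unadjusted p under 0.05 by 2.19% and 7.46%. The differences between lines were tested for the 5 genes as well, and none of the 5 had an adjusted or an unadjusted p under 0.05 (limma). For KO minus R206W 0.0307% of all genes had an adjusted and 2.29% an unadjusted p under 0.05. For P209L minus R206W the shares were 0.0% and 3.98%, and for P209L minus KO 0.0492% and 7.98%. Without KO Control mouse 1 the KO differences of Abca1, Abcg1 and Lrp1 turned to -0.040, -0.21 and -0.16, so their direction rested on that library, and that of Clu went from 0.23 to 0.052. Without KO mouse 3 Clu was 0.044, Abcg1 -0.045 and Lrp1 -0.047.

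The other genes of the pathway were taken from 5 lists by function: other apolipoproteins, lipocalins with the Apod receptor Bsg, LDL receptor family and uptake genes, genes of sterol export and lipoprotein remodelling, and liver X receptor (LXR), RXR and oxysterol genes. Of 64 genes, 48 were expressed highly enough to be tested. Most other apolipoproteins of the blood were near 0 in cortex, and of 11 only Apoa2 and Apoc1 were tested, at means of 1.57 and 1.87 TPM. No gene of the 48 passed an adjusted p of 0.05 in KO, R206W or P209L mice (limma). The median log2 difference of the 48 was 0.11 in KO, 0.060 in R206W and -0.057 in P209L mice, against medians of 0.064, 0.0096 and 0.016 over all genes. The KO medians were -0.095 for the 48 genes and -0.059 for all genes without KO Control mouse 1. Without P209L Control mouse 1 or 2 the P209L median of the 48 was -0.20 or -0.024.

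At an unadjusted p under 0.05 there were 0 of the 48 genes in KO mice, 2 in R206W and 4 in P209L mice, all named here after their values were seen. Over all genes the shares were 4.08%, 2.19% and 7.46%, so the 4 of 48 in P209L mice were near the background. In R206W mice they were Rbp4, a lipocalin that carries retinol, and Lpcat3, which remodels membrane phospholipids. Rbp4 was 28.6 ± 1.91 TPM in R206W and 22.7 ± 0.774 TPM in R206W Control mice, and Lpcat3 was 18.5 ± 1.44 and 14.6 ± 1.44 TPM (SD, n = 3 in each group). In P209L mice they included Ptgds, a lipocalin that makes prostaglandin D and is abundant in leptomeninges and oligodendrocytes. Ptgds was 343 ± 26.9 TPM (SD, n = 3) in P209L mice against 732 ± 84.9 TPM (SD, n = 2) in their controls, without overlap, with a log2 difference of -1.09 (SE 0.231, adjusted p = 0.110 by limma). Without P209L Control mouse 2, the library with choroid plexus transcripts, it was -0.97. It was 853 ± 169 TPM in R206W and 1103 ± 248 TPM in R206W Control mice (SD, n = 3 each), which overlapped. In the KO line it was 1107 ± 303 TPM in KO and 878 ± 144 TPM in KO Control mice (SD, n = 3 each), also with overlap.

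The other genes of the pathway at an unadjusted p under 0.05 in P209L mice concerned oxysterols. Nr1h3, which encodes liver X receptor alpha, was 1.33 ± 0.440 TPM (SD, n = 3) against 2.63 ± 0.573 TPM (SD, n = 2). Cyp27a1, which makes an oxysterol, was 3.84 ± 0.597 TPM (SD, n = 3) against 5.81 ± 0.382 TPM (SD, n = 2). Cyp7b1, which breaks oxysterols down, was 11.97 ± 1.15 TPM (SD, n = 3) against 9.02 ± 0.806 TPM (SD, n = 2). Their adjusted p-values were 0.279, 0.351 and 0.484 (limma). Without P209L Control mouse 2 the unadjusted p of Cyp7b1 was 0.109 (limma). None of these values passed the threshold, and the transporters Abca1 and Abcg1, which liver X receptors control, were at 102% and 84.0% of control in the same mice.

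In wild-type cortex, the mice of 3 weeks were compared with the 6 controls of 8 weeks. Abcg1 was lower at 3 weeks: the 2 younger mice had 10.6 and 10.8 TPM, and the 6 older mice had a lowest value of 9.71, a median of 18.9 and a highest value of 24.8 TPM. The groups overlapped only through KO Control mouse 1. The log2 difference was -0.69 (SE 0.248, adjusted p = 0.0403 by limma). Abcg1 was the only one of the 5 genes other than Apod past the threshold, in a comparison where 36.1% of all genes were. At an unadjusted p under 0.05 (limma) there were 2 of these 5, Abcg1 and Abca1, against 46.0% of all genes. None of the 5 was higher or lower without overlap, as 16.7% and 21.5% of all genes were. Abca1 was 6.19 ± 0.537 (SD, n = 2) against 8.58 ± 1.72 TPM (SD, n = 6), with a log2 difference of -0.39 (SE 0.171, adjusted p = 0.0843). Clu was 450 ± 115 against 592 ± 90.6 TPM, with a log2 difference of -0.40 (SE 0.200, adjusted p = 0.127 by limma). Clu was -0.14 without P209L Control mouse 1 and -0.66 without P209L Control mouse 2.

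Apod, Apoe and Lrp1 stood near the older level. Apod was 172 ± 20.4 TPM (SD, n = 2) at 3 weeks and 157 ± 31.6 TPM (SD, n = 6) at 8 weeks, with a log2 difference of 0.14 (SE 0.137). It is given without a test, because control values of both knockin lines are among those on which Apod was chosen. The Apod difference was 0.28 after rescaling by size factors, 0.26 without P209L Control mouse 1 and 0.024 without P209L Control mouse 2. Apoe and Lrp1 were at 97.0% and 100.9% of the older level. The median over all genes in this comparison was -0.12, and it was 0.00081 after rescaling by size factors. Without KO Control mouse 1, Abcg1, Abca1 and Clu all passed the threshold, with adjusted p-values of 0.00111, 0.00478 and 0.0386 (limma), in a fit where 50.3% of all genes passed. The Abcg1 call was lost when KO Control mouse 2 or 3, any R206W Control mouse, either P209L Control mouse, R206W mouse 1 or P209L mouse 2 was left out, at adjusted p-values of 0.0501 to 0.177 (limma).

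**Figure D3:**
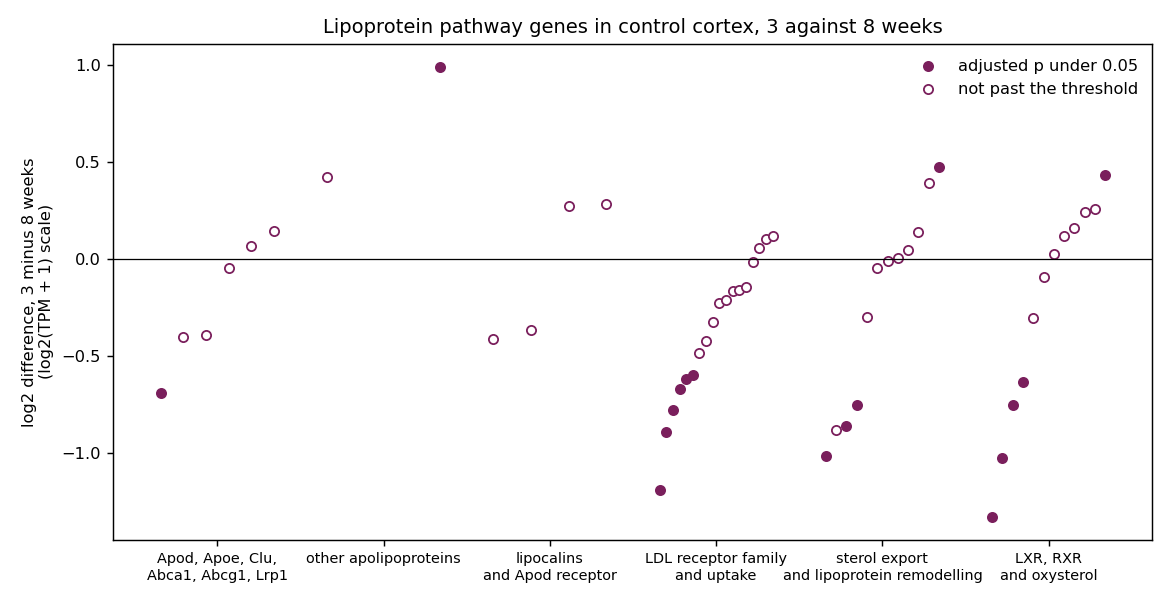
Log2 difference between control mice of 3 and 8 weeks (vertical axis, log2(TPM + 1) scale; below 0 is lower at 3 weeks) for the 6 genes and the tested genes of 5 pathway lists, ordered by value within each list. Filled points passed an adjusted p of 0.05: 1 of the 5 genes other than Apod and 16 of 48 pathway genes, 13 of the 16 lower at 3 weeks. The open Apod point is a description only, because controls of the lines on which Apod was chosen enter it.

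Among the 48 pathway genes, 16 passed the threshold between 3 and 8 weeks, 3 higher and 13 lower at 3 weeks. Over all genes 36.1% passed, 11.3% higher and 24.8% lower, so the count of pathway genes was near the background. After size factors or quantile normalization 24 of the 48 passed, where 44.2% and 44.5% of all genes did. Of the LDL receptor family and uptake genes 6 of 18 were lower at 3 weeks and 0 were higher, beside 24.8% and 11.3% of all genes. They included the Wnt coreceptor Lrp6 at -0.67 (SE 0.103, adjusted p = 0.00025), the agrin receptor Lrp4 at -0.89 (SE 0.188, adjusted p = 0.00223) and the sorting receptor Sorl1 at -1.19 (SE 0.289, adjusted p = 0.00538). Of the sterol export and remodelling genes 3 of 12 were lower and 1 was higher, which is close to those shares. The lower genes were Soat1, which esterifies cholesterol for storage, at -1.01 (SE 0.139, adjusted p = 0.000114), the transporter Abca5 at -0.86 (SE 0.150, adjusted p = 0.000602) and Lcat, which esterifies cholesterol on particles, at -0.75 (SE 0.188, adjusted p = 0.00633). All adjusted p-values are from limma.

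Of the LXR, RXR and oxysterol genes 4 of 12 were lower at 3 weeks and 1 was higher, beside 24.8% and 11.3% of all genes. The coregulators Ncor1 and Ncoa1 differed by -1.03 (SE 0.148, adjusted p = 0.000158 by limma) and -1.33 (SE 0.197, adjusted p = 0.000194), and Rxra, the partner of liver X receptors, by -0.63 (SE 0.137, adjusted p = 0.00267). Among other apolipoproteins Apoc1 was higher at 3 weeks: the younger mice had 3.54 ± 1.15 TPM (SD, n = 2) and the older mice 1.27 ± 0.331 TPM (SD, n = 6), with a log2 difference of 0.99 (SE 0.312, adjusted p = 0.0221 by limma). None of the 4 tested lipocalin and receptor genes passed. The younger mice are all of the P209L line, so age and line cannot be told apart.

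Across mice, the 6 genes divided into Apod and the rest. Correlations of log2(TPM + 1) are given as descriptions: the 17 points share 6 groups and 2 ages, and the TPM of each library share a total. After each group's mean was subtracted, Apod had Pearson's r of -0.28 with Apoe, -0.028 with Clu, 0.085 with Abca1, 0.024 with Abcg1 and 0.12 with Lrp1. The other 5 genes had r between 0.43 (Apoe and Lrp1) and 0.90 (Abcg1 and Lrp1) with each other. Clu was at 0.87 with Apoe, 0.85 with Abca1 and 0.82 with Abcg1. Spearman's rho ranged from -0.081 to 0.096 for Apod with the others and from 0.50 to 0.90 among the others. Without the point of KO Control mouse 1 the lowest and highest Pearson values among the others were 0.40 (Apoe and Lrp1) and 0.88 (Apoe and Clu). Apod then ranged from -0.36 with Apoe to -0.085 with Lrp1. The KO Control mean that was subtracted still included that mouse.

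The genes most like Apod were sought among 11938 genes with a mean of at least 5 TPM. Over the 17 mice the 8 with the highest r were Tbc1d9b (0.83), Tprn (0.82), Smco3, Plekhg3, Dusp28, Mobp (0.79), Pla2g16 and Cyp4f13 (0.78). After subtraction of group means they were Gstt1 (0.84), Ech1 (0.83), Pla2g16 (0.81), Prr18, Ifi27, Pttg1, Coq2 and Iscu (0.75). Pla2g16 was the only gene in both lists, and Mobp, a myelin gene, was the only one in any of the 12 marker lists. By the same measure within groups, the genes most like Apoe were Tnfrsf1a, Brsk1 and Gpx1 (0.93 to 0.92), and those most like Clu were Msn, Smo and the pseudogene Glns-ps1 (0.98 to 0.96). The genes most like Abca1 were Srgap2, Cyfip1 and Asb8 (0.98 to 0.97), those most like Abcg1 included G3bp1 and Uba1 (0.99), and those most like Lrp1 were Pi4ka, Gga1 and Gm7353 (0.99). The values of Glns-ps1 and Gm7353 may share reads with near-identical genes.

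Markers of the cells that make Apod were lower in P209L mice as well. The summed TPM of 14 oligodendrocyte markers, led by Mbp, ranged from 2662 to 3781 in P209L mice and from 4418 to 6592 in P209L Control mice, at 58.8% of control, and all 14 markers were lower. The sum of 13 leptomeningeal fibroblast markers, led by Igf2 and Dcn, ranged from 56.7 to 82.0 TPM in P209L and from 101 to 115 TPM in P209L Control mice, at 63.3% of control, again with all 13 lower. That of 10 mural cell markers (pericytes and smooth muscle), led by Rgs5 and Vtn, was at 77.6% with all 10 lower. Apod per 1000 TPM of oligodendrocyte markers was 34.1 ± 0.247 (SD, n = 3) in P209L and 31.9 ± 5.21 (SD, n = 2) in P209L Control mice. Per 1000 TPM of leptomeningeal markers it was 1622 ± 67.7 (SD, n = 3) and 1590 ± 48.4 (SD, n = 2). Both mean ratios were higher in P209L mice than in their controls, but per 1000 TPM of mural markers the mean was lower, at 1307 ± 352 (SD, n = 3) against 1552 ± 34.3 (SD, n = 2), with overlap. The direction of the oligodendrocyte ratio rested on P209L Control mouse 2, at 28.2. P209L Control mouse 1 was at 35.6, above every P209L mouse (33.9 to 34.4). Oligodendrocyte precursor markers were lower as well, at 72.8% of control without overlap and with 7 of 7 lower. Lists of other cells moved too. The endothelial sum was at 87.6% with overlap and 9 of 9 lower, and the striatal neuron sum at 80.2% without overlap. The cortical neuron sum was at 97.2% with overlap, and the cerebellar neuron sum was higher, at 126% without overlap. Without P209L Control mouse 2 the oligodendrocyte, leptomeningeal, mural and precursor sums were at 73.2%, 67.5%, 86.2% and 82.2% of control, and Apod was at 70.3%. The endothelial and striatal sums were then at 92.7% and 87.0%.

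In R206W mice the same markers stood closer to control. The oligodendrocyte sum ranged from 3138 to 3888 TPM in R206W and from 3668 to 4001 TPM in R206W Control mice, at 91.1% of control with overlap, and 12 of 14 markers were lower. The leptomeningeal sum ranged from 73.2 to 117 and from 93.7 to 125 TPM, at 89.9% with 10 of 13 lower, and the mural sum was at 108% with 2 of 10 lower. Apod per 1000 TPM of oligodendrocyte markers was 35.6 ± 4.69 (SD, n = 3) in R206W and 47.5 ± 7.04 (SD, n = 3) in R206W Control mice. The highest R206W mouse (38.3) was below the lowest control (42.7). Per 1000 TPM of leptomeningeal markers Apod was 1328 ± 288 and 1713 ± 154 (SD, n = 3 each), and these groups overlapped. Per 1000 TPM of mural markers it was 737 ± 59.2 and 1172 ± 147 (SD, n = 3 each), and the highest R206W mouse (789) was below the lowest control (1002.5). Like those of P209L mice, these ratios contain the Apod values that chose the gene. They are given without a test, and nothing is read from the lack of overlap.

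In KO mice, where Apod was at 127% of control, the oligodendrocyte sum was at 110.4% (3397 to 4344 against 2852 to 3726 TPM), with 13 of 14 markers higher. The leptomeningeal sum was at 126% (91.6 to 154 against 80.1 to 107 TPM), with 11 of 13 higher. The mural and endothelial sums were at 118% and 117%, with 8 of 10 and 9 of 9 markers higher. Without KO Control mouse 1 the oligodendrocyte, leptomeningeal, mural and endothelial sums were at 102%, 134%, 110% and 112% of control. The low cerebellar neuron sum was at 194% of control without overlap (15.4 against 7.93 TPM), and at 184% without that mouse. The cortical neuron sum was at 98.3% with overlap, and at 84.9% without overlap once that mouse was left out. A small list of 5 blood genes, led by Hbb-bs and Hba-a1, moved in the direction of Apod in all 3 lines. So did the oligodendrocyte and leptomeningeal sums. The oligodendrocyte precursor sum was at 114% of control in KO mice, and at 102% without KO Control mouse 1. In R206W mice it was near control, at 99.4% with overlap and 5 of 7 markers higher, and in P209L mice it was at 72.8%. The blood sum was at 133% of control in KO mice (759 to 1323 against 696 to 900 TPM), 67.3% in R206W mice (560 to 693 against 736 to 1252 TPM, without overlap) and 60.5% in P209L mice (1905 to 2837 against 2572 to 4884 TPM). Without P209L Control mouse 2 it was at 87.6% in P209L mice, and without KO Control mouse 1 at 139% in KO mice. The part of these cell types in the level of Apod was not tested.

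**Figure D4:**
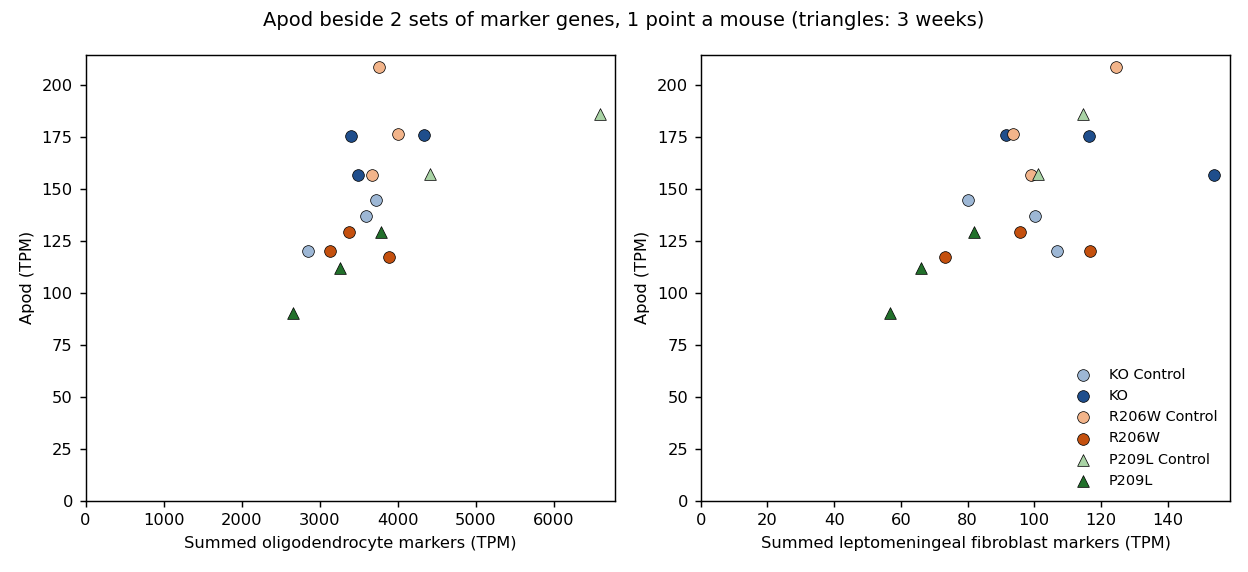
Apod (vertical axis, TPM) beside the summed TPM of 14 oligodendrocyte markers (left) and 13 leptomeningeal fibroblast markers (right), 1 point per mouse. P209L mice (dark triangles) lie below and to the left of P209L Control mice in both panels, while R206W mice (dark orange circles, 117 to 130 TPM of Apod) overlap with their controls along both horizontal axes.

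Markers of the cells that make Apoe and Clu were also summed. The summed astrocyte markers, led by Aldoc and Slc1a2, were at 116% of control in KO, 102% in R206W and 95.9% in P209L mice, and at 76.3% in the controls of 3 weeks relative to 8 weeks. The microglial sum, led by Ctss, was at 118%, 99.1%, 101% and 104% in the same order. Without KO Control mouse 1 the astrocyte sum was at 107% and the microglial sum at 114% in KO mice, and without P209L Control mouse 2 they were at 107% and 119% in P209L mice. In the mice of 3 weeks Clu, Abcg1 and Apoe were at 76.0%, 57.8% and 97.0% of the older level. In P209L mice Clu was at 77.2% of control. The part of astrocytes in these levels was not tested.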

How the data were processed

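Bulk cortex RNA of 17 male mice in 6 groups was sequenced from stranded total RNA libraries. The authors deposited TPM values per gene symbol and mouse; their processing notes name Trim Galore, STAR 2.7.1a, GATK 4.0.4.0, RSEM and the build mm10, while the annotation is not given in the sources used here. TPM keep no depth, so the depth per mouse is unknown, no counting interval is given, and abundant transcripts shift all others. Of 55573 entries 120 repeated a symbol and were summed.

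Values were analysed as log2(TPM + 1) for 16265 genes (mean of 1 TPM or more), a scale that understates changes of low genes. A mean per group was fitted to all 17 mice with limma 3.58.1 in R 4.3.3 (eBayes with trend), two-sided, adjusted by Benjamini-Hochberg over all genes of each comparison (threshold 0.05). The fit was tested on simulated data. Genes without overlap are those with every mutant mouse above, or below, every control. P-values measure the spread between these mice. Alternatives were a pseudocount of 0.1, no filter or one at 5 TPM, median-of-ratios or quantile scaling, removal of mitochondrial genes, robust moderation, sample weights, a replicate block, separate fits and leaving out each mouse. Marker sums and shares of genes without overlap that leave out a mouse were added after seeing the data.

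The 6 genes and all lists were chosen with earlier results of these data known. Named were the 6 genes, Hnrnph2, any pathway gene called in a mutant line, up to 3 genes per pathway list with the smallest p between ages, the 8 genes most like Apod by each of 2 measures, 3 for each other gene, and the 2 most abundant markers per list; other names were chosen after their values were seen. Some genes that this rule names are not reported here. Gene positions come from GENCODE M21, which held 98.3% of the symbols.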

Additional observations from a re-analysis of the deposited data

Results flagged for a closer look

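The effects on Apod in the lines differed in direction, because every KO mouse was above all of its controls while every R206W mouse and every P209L mouse was below all of its own. On the log2(TPM + 1) scale the KO effect minus the R206W effect was 0.89, and the P209L effect minus the KO effect was -0.98. These differences were not tested, since Apod was chosen for its lower level in the knockin lines. The KO effect alone had an adjusted p of 0.999 (limma). The controls differed as well, with R206W Control mice 0.42 above KO Control mice. KO mice overlapped with R206W Control mice, at -0.083.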

How the results depend on the processing

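Apod kept its direction in all 191 alternative values, and its test in KO mice did not change side. Most of these comparisons hold values of the knockin lines or their controls, on which Apod was chosen. Many of the alternatives, such as leaving out a mouse of another group, cannot change a difference of group means. The count is therefore only a description. Against all 6 controls of 8 weeks, chosen after seeing the data, its R206W difference was -0.34. Adjusted p-values of Apod in KO mice ranged from 0.0901 to 1.0 (limma). Of the 5 genes other than Apod, those past the threshold between 3 and 8 weeks numbered 0 with no filter, 0 in a fit on its own groups, 2 after quantile normalization and 3 with sample weights. In these fits 16.1%, 26.6%, 44.5% and 58.2% of all genes passed. They numbered 0 to 3 when 1 mouse was left out, where 16.7% to 50.3% did. Of the 48 pathway genes, sample weights called 8 in KO, 2 in R206W and 26 between ages, beside 13.1%, 0.916% and 58.2% of all genes. Leaving out 1 mouse gave 7 to 24 between ages, 7 without P209L Control mouse 1, 10 without P209L Control mouse 2 and 24 without KO Control mouse 1. Sample weights gave KO Control mouse 1 a weight of 0.0819.

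The deviations of same-numbered mice of a line had r from -0.11 to 0.33. The labels do not say whether such mice share a litter or batch, and so few mice cannot settle it. The number was therefore used only in an alternative fit. With the number as a replicate block 1 pathway gene passed in P209L mice, Apod was -0.63 in P209L mice, Apoe turned to 0.040 between ages and Abca1 to -0.060 in P209L mice.

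Other signs turned as follows, none with a call. Apoe was 0.15 in P209L mice after quantile normalization and 0.093 between ages after size factors. Sample weights gave -0.015 for Clu, -0.20 for Abcg1 and -0.22 for Lrp1 in KO mice, and -0.045 for Lrp1 between ages. Lrp1 was 0.14 in R206W mice against all 6 controls. With 1 mouse left out, Apoe ranged from -0.25 to 0.14 in P209L mice and from -0.22 to 0.12 between ages, and Abca1 from -0.077 to 0.16 in P209L mice. In KO mice Abca1 ranged from -0.040 to 0.37, Abcg1 from -0.21 to 0.42 and Lrp1 from -0.16 to 0.51. In R206W mice Abcg1 ranged from -0.045 to 0.23 and Lrp1 from -0.13 to 0.090. Between both groups of 8-week controls Clu ranged from -0.0062 to 0.33, Abca1 from -0.036 to 0.38, Abcg1 from -0.14 to 0.49 and Lrp1 from -0.087 to 0.58, each lowest without KO Control mouse 1. Lrp1 ranged from -0.12 to 0.21 between ages. The cause was not tested.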
